A study of Mus musculus with 12 samples.

Results

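The genes described here encode the enzymes that process drugs and other foreign chemicals, with the aryl hydrocarbon receptor (Ahr), which senses such chemicals, and its repressor (Ahrr). They were chosen by name from a table of 23337 gene symbols. The rule took every symbol of the cytochrome P450 families 1 to 4 (Cyp), the cytosolic and membrane glutathione transferases (Gst, Mgst), the UDP-glucuronosyltransferases (Ugt) and the sulfotransferases (Sult), and added Nqo1, Ahr, Ahrr, Por and Ephx1. It found 147 genes. RNA was sequenced from 12 libraries of NU1, a line of normal mouse urothelial cells (the lining of the bladder) that became immortal on its own through serial passaging, and Stag2, a subunit of the cohesin complex, was knocked down in some of them. The study is about how cells stay quiescent.

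There were 4 groups, each with 1 library from each of the experiments numbered 5, 7 and 9 in the labels. Proliferating controls carried the hairpin labelled shNT and proliferating knockdown cells the hairpin labelled sh4. Quiescent controls and quiescent knockdown cells carried the same hairpins, were grown to confluence, were then kept with 1 µM rosiglitazone and 0.5 µM erlotinib, and carry the label day 7. PPAR gamma, a nuclear receptor, is switched on by rosiglitazone, while erlotinib inhibits the EGF receptor's kinase. All groups shared a growth medium with 15% chelated serum, EGF at 5 ng/ml, 0.3 mM calcium chloride, insulin and transferrin, T3, hydrocortisone and cholera toxin. The design therefore has 1 cell line and 1 hairpin against Stag2. Confluence, rosiglitazone, erlotinib and the arrest itself came together in the quiescent groups and cannot be told apart here.

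Foreign chemicals are cleared in stages. Cytochrome P450 enzymes, which take electrons from Por, oxidise them, and the epoxide hydrolase Ephx1 opens the reactive epoxides that can result. Transferases then attach glutathione, glucuronic acid or sulfate, and transporters carry the products out of the cell. The aryl hydrocarbon receptor switches on Cyp1 genes, and the factor Nrf2 (gene Nfe2l2) switches on Nqo1 and many glutathione transferases. The liver holds most of this activity, while the urothelium meets the excreted products in urine.

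Library totals ran from 14524429 to 21987539 counts, so a floor of 3 counts lay between 0.136 and 0.207 CPM (counts scaled to a common library total, with totals adjusted by TMM). Stag2 lay between 107 and 145 CPM in the 6 control libraries and between 9.43 and 33.3 CPM in the 6 knockdown libraries, with no overlap. The summed CPM of 19 urothelial markers ran from 13372.6 to 19122.6 in proliferating controls, 16063 to 17881 in proliferating knockdown cells, 13141 to 19943.5 in quiescent controls and 22355 to 24119 in quiescent knockdown cells. Krt8, Krt20 and Cdh1, all epithelial, were at or above 534 CPM in every library. Krt7, Krt18 and Krt19 were also high, with 1124.79 CPM the lowest value (Krt19), and Epcam did not fall below 390.68 CPM. Several other markers of the list were low. Trp63, a factor of basal cells, had 0 counts in every library, and the uroplakin gene Upk3a, a marker of umbrella cells, reached at most 0.0453 CPM. The uroplakin genes Upk1a, Upk1b, Upk2 and Upk3b reached at most 3.94, 2.23, 1.45 and 8.90 CPM, and Krt5 and Krt14 at most 6.60 and 10.6 CPM. Krt5, Krt14 and Krt20 passed the test as lower, and Gata3 and Elf3 as higher, in quiescent than in proliferating controls. The part of such shifts in the results below was not tested. Summed fibroblast markers (7 genes) stayed at or below 2.27 CPM, smooth muscle markers (4 genes) at or below 0.715, endothelial markers (4 genes) at or below 0.238 and immune markers (6 genes) at or below 9.72. In such bulk libraries, fewer cells of a type and less RNA per cell cannot be told apart.

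Most of the 147 genes were silent or nearly so in NU1 cells. No library held a count for 56 of them, and another 56 had counts but too few to test. The remaining 35 passed the filter on low counts and were tested among 12406 genes. They were 13 of 20 Gst genes, 3 of 3 Mgst genes, 4 of 51 Cyp2 genes, 1 of 9 Cyp3 genes, 4 of 20 Cyp4 genes, 5 of 18 Sult genes, 2 of 18 Ugt genes, and Ahr, Ephx1 and Por. None of the 3 Cyp1 genes was tested, nor were Nqo1 and Ahrr. Of the 35 genes, 5 (Cyp2d22, Gsto2, Gstt1, Sult1c2 and Sult4a1) passed the filter through the quiescent libraries alone and 3 (Mgst2, Sult1a1 and Ugt1a6a) through the proliferating libraries alone, so their place among the tested genes depended on the state in which they were higher. Sult1c2 passed through the 3 quiescent knockdown libraries alone. Tests of these 8 genes are not independent of the filter, and counts are also given for the other 27, a choice made after the data had been seen.

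Levels between genes are compared per kilobase of exon, as the mean over the 12 libraries. The omega-class glutathione transferase Gsto1 stood first at 465 CPM per kilobase, and Por, the electron donor of the P450 enzymes, second at 192. Ephx1 followed at 100.7, then the alpha-class transferase Gsta4 at 66.7, the mu-class transferase Gstm2 at 64.3 and the membrane-bound transferase Mgst1 at 52.0. P450 genes themselves were low. The highest were Cyp2j6 at 8.17, which acts on arachidonic acid, Cyp3a13 at 6.59 and Cyp4f16 at 5.39 CPM per kilobase. Sult2b1, which sulfates cholesterol, led the sulfotransferases at 8.25, and Ugt1a7c led the glucuronosyltransferases at 2.88. Ahr itself was at 5.25 CPM per kilobase. The leading genes were thus those of glutathione transferases, the epoxide hydrolase and the electron donor.

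**Figure D1:**
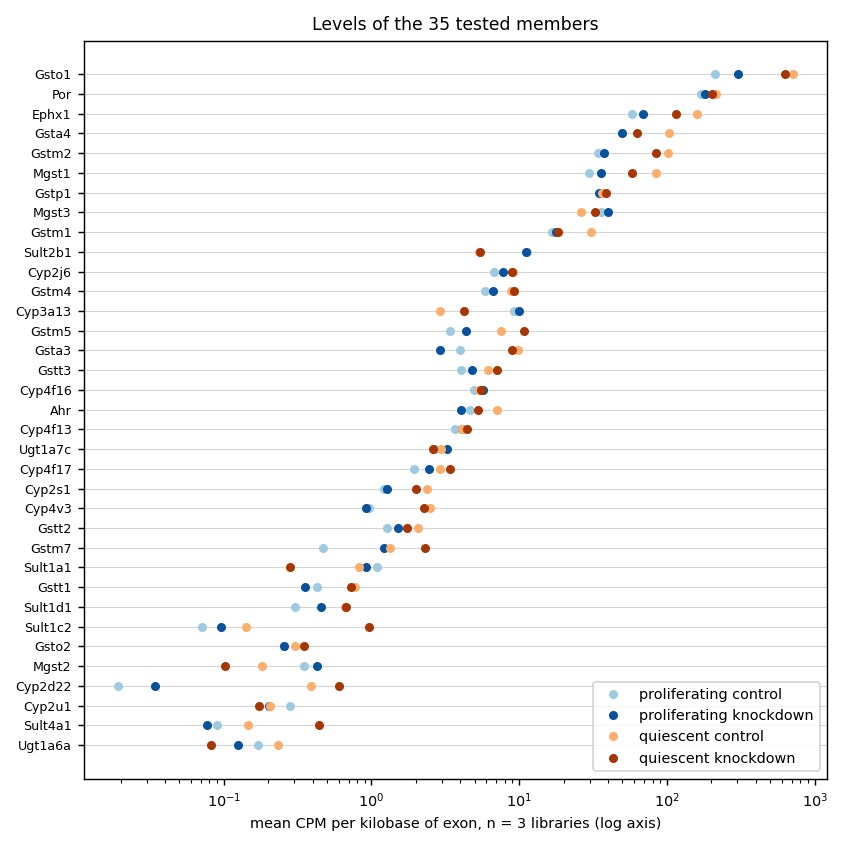
Mean level of the tested genes per kilobase of exon, in CPM per kilobase on a log axis, with 1 symbol for each of the 4 groups (means of 3 libraries each). Gsto1, Por and Ephx1 stand at the top, and Cyp3a13 and Sult2b1 show the quiescent symbols below the proliferating ones.

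Several genes that define the sensor pathways were near absent. Nqo1, a quinone reductase widely used as a marker of both receptor and Nrf2 activity, had 9, 3 and 14 counts in the proliferating controls of experiments 5, 7 and 9. It had 7, 2 and 3 counts in proliferating knockdown cells, 1, 3 and 4 in quiescent controls and 0, 4 and 2 in quiescent knockdown cells. No library thus exceeded 0.795 CPM, and many were at or near the floor. Cyp1a1, the classical target of the aryl hydrocarbon receptor, had 14 counts in all 12 libraries together, 9 of them in the quiescent knockdown library of experiment 9. Ahrr had 2 counts in all, and Cyp1a2 had 0. A count of 0 allows up to 0.136 to 0.207 CPM in these libraries, by counting error only. Tiparp, another target of the receptor, was by contrast well measured, at 48.7 CPM in proliferating and 46.0 in quiescent controls.

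Quiescence in control cells moved 7 of the 35 tested genes past the threshold (edgeR, adjusted p under 0.05 over all tested genes), 5 higher and 2 lower. Ephx1, Mgst1, Gstm2, Gstm5 and Cyp4v3 rose, by 2.23 to 2.98 times, and Cyp3a13 and Sult2b1 fell. Over all 12406 genes the same test called 20.0%, with 8.33% higher and 11.7% lower, so a share of 7 in 35 is near the background. The median log2 fold change of the 35 genes was 0.61, and 29 of them had a positive value, against a median of 0.00 over all tested genes; the filter above had a part in which genes entered this median. The experiment number is shared by libraries of all groups, and a fit with it as a replicate block called 16 of the 35 genes, 14 higher and 2 lower, against 35.3% of all genes. Over the 27 genes that passed the filter in either state, the counts were 7 without and 15 with the block. Leaving out the proliferating control of experiment 5 gave 11 genes, where 24.4% of all genes then tested were called. DESeq2 gave 12, against 25.9%.

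Ephx1 (chr1:180976210-181020904, minus strand, GRCm38) showed the smallest adjusted p. It measured 134, 96.7 and 109.6 CPM in the proliferating controls of experiments 5, 7 and 9, and 304, 324 and 309.9 CPM in the quiescent controls. All 3 quiescent libraries lay above all 3 proliferating ones. The means were 113 ± 19.0 CPM and 313 ± 10.3 CPM (SD, n = 3). The log2 fold change was 1.46 (standard error 0.20, adjusted p 0.000626 by edgeR), and all 13 alternative settings kept it past the threshold. Por, which serves all microsomal P450 enzymes, measured 803, 545 and 719.8 CPM in proliferating and 1027, 728 and 837 CPM in quiescent controls. Those groups overlapped, and its log2 fold change of 0.33 did not pass (standard error 0.20, adjusted p 0.273 by edgeR).

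Among the P450 genes, Cyp3a13, a member of the subfamily known for oxidising many drugs, fell. It measured 31.5, 23.8 and 26.6 CPM in proliferating controls and 10.7, 5.26 and 10.0 CPM in quiescent controls, with no overlap. Its log2 fold change was -1.66 (standard error 0.27, adjusted p 0.00185 by edgeR). Cyp4v3, a fatty acid hydroxylase, was low, at 6.06, 2.25 and 2.67 CPM in proliferating and 8.49, 7.89 and 12.1 CPM in quiescent controls. These groups did not overlap, and its log2 fold change was 1.37 (standard error 0.42, adjusted p 0.0398 by edgeR). That call was lost in 7 of 13 alternatives, with adjusted p from 0.00711 to 0.286, including the removal of either the experiment 7 or the experiment 9 library of the proliferating controls and of any 1 quiescent control. Cyp2j6 measured 32.0, 19.4 and 22.1 CPM in proliferating and 33.7, 30.03 and 34.9 CPM in quiescent controls, which overlapped, and did not pass (log2 fold change 0.42, standard error 0.21, adjusted p 0.182 by edgeR).

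Of 13 tested cytosolic glutathione transferases, 2 passed without the block, Gstm2 and Gstm5 of the mu class, and 8 with it, of the mu, alpha and theta classes, all higher. Gstm2 (chr3:107981702-107986453, minus strand) measured 31.0, 78.8 and 61.1 CPM in proliferating controls and 139.8, 196 and 174 CPM in quiescent controls. The lowest quiescent library stood above the highest proliferating one, and the log2 fold change was 1.58 (standard error 0.36, adjusted p 0.0112 by edgeR). Gstm5 (chr3:107895821-107898686, plus strand), from the same gene cluster, measured 4.77, 2.77 and 5.45 CPM in proliferating and 7.38, 8.56 and 13.0 CPM in quiescent controls. It rose without overlap (log2 fold change 1.15, standard error 0.35, adjusted p 0.0395 by edgeR), but lost the call in 7 of 13 alternatives, with adjusted p from 0.0021 to 0.135. Removing any 1 control library except the quiescent one of experiment 5 was enough for that.

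The alpha-class genes had larger spread. Gsta3, known in mice for conjugating the epoxide of aflatoxin, measured 10.9, 12.7 and 28.5 CPM in proliferating and 54.1, 29.7 and 43.8 CPM in quiescent controls. The lowest quiescent value lay just above the highest proliferating one, and the log2 fold change of 1.29 had an edgeR adjusted p of 0.0574 without the block and of 0.010 with it. Gsta4, which acts on the lipid peroxidation product 4-hydroxynonenal, measured 97.2, 50.7 and 41.5 CPM in proliferating and 145, 99.0 and 150.4 CPM in quiescent controls. The edgeR adjusted p of its log2 fold change of 1.06 was 0.110 without and 0.0101 with the block. Gstp1, the pi-class transferase, measured 46.7, 54.8 and 67.1 CPM in proliferating and 58.0, 49.4 and 61.3 CPM in quiescent controls. Its group means were both 56.2 CPM, with a standard error of 0.20 on the log2 difference (adjusted p 0.999 by edgeR). Of its 50-base sequences, 33.7% also occur in other genes, most of all in Gstp2, so counts may be split between copies.

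Mgst1, a membrane-bound transferase that also reduces lipid peroxides, rose. Its levels were 69.7, 49.4 and 60.2 CPM in proliferating and 132, 132 and 247 CPM in quiescent controls, with the quiescent library of experiment 9 the highest. The log2 fold change was 1.51 (standard error 0.28, adjusted p 0.00375 by edgeR), and it stayed past the threshold in all 13 alternatives. Mgst3, of the same family, measured 55.0, 43.1 and 20.4 CPM in proliferating and 29.0, 31.3 and 25.5 CPM in quiescent controls, and did not pass (log2 fold change -0.47, standard error 0.34, adjusted p 0.360 by edgeR).

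Sult2b1 fell with an even difference across experiments. It measured 40.9, 41.0 and 51.0 CPM in proliferating controls and 19.9, 20.2 and 23.1 CPM in quiescent controls. The log2 fold change was -1.07 (standard error 0.20, adjusted p 0.00419 by edgeR), with within-experiment differences of -1.03, -1.02 and -1.14. A gene on the opposite strand overlaps 8.13% of its exon bases, and the strand setting of the counting is not given in the sources used here.

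Ahr measured 35.7, 29.2 and 20.4 CPM in proliferating and 45.3, 43.6 and 41.3 CPM in quiescent controls. The groups did not overlap, and the difference was largest in experiment 9, where the proliferating level was lowest. The log2 fold change was 0.61 (SE 0.21), with an edgeR adjusted p of 0.0588 without the block and 0.0117 with it. The block added 8 further genes to those called, all higher in quiescent controls: Cyp2d22, Cyp4f17, Gsta3, Gsta4, Gstm1, Gstm4, Gstm7 and Gstt3.

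**Figure D2:**
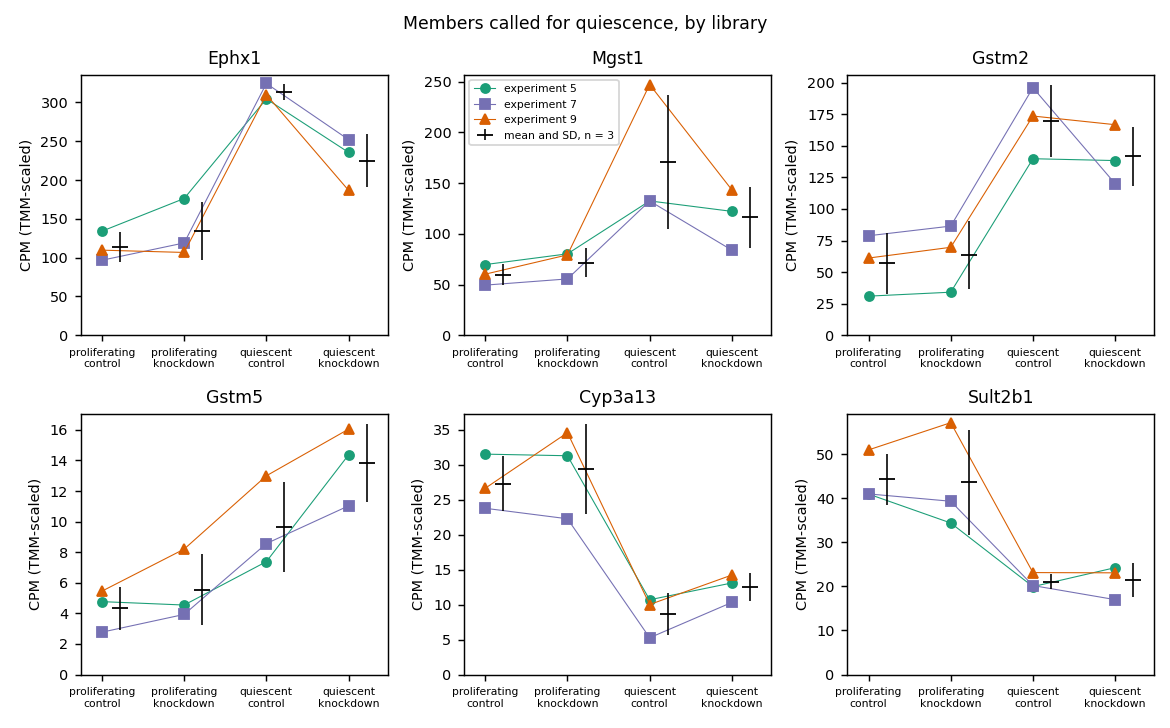
CPM of 6 genes called between quiescent and proliferating controls, by group, with 1 coloured line per experiment and black bars for the mean and SD (n = 3). Ephx1, Mgst1, Gstm2 and Gstm5 are higher and Cyp3a13 and Sult2b1 lower in all 3 quiescent controls than in all 3 proliferating controls.

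The same comparison in Stag2 knockdown cells, which uses 6 other libraries, also called 7 genes, 5 higher and 2 lower, against 18.4% of all genes (7.59% higher and 10.8% lower). Of these, 5 were called in both backgrounds: Ephx1, Gstm2, Gstm5, Cyp3a13 and Sult2b1. The share of all genes called in both was not taken, so this overlap has nothing to be compared with. The log2 fold changes in knockdown cells were -1.23 for Cyp3a13 (standard error 0.26, adjusted p 0.00874 by edgeR) and -1.02 for Sult2b1 (standard error 0.20, adjusted p 0.00581 by edgeR). The other genes called were Gsta3 and Sult1c2, and over the 27 genes that passed the filter in either state, which leave out Sult1c2, the count was 6. Gsta3 measured 12.4, 10.5 and 15.0 CPM in proliferating and 55.7, 17.9 and 43.7 CPM in quiescent knockdown cells. That is a log2 fold change of 1.63 (standard error 0.44, adjusted p 0.0257 by edgeR), with no overlap between the groups.

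This count depended on single libraries. Leaving out 1 of the 6 knockdown libraries gave between 2 and 5 genes, the fewest without the quiescent library of experiment 5. Calls over all genes fell as well, to between 9.45% and 16.1%. Every removal except that of the quiescent library of experiment 7 lowered the count by more than 1.5 times. Cyp3a13 and Sult2b1 kept their calls whichever 1 library was left out, while Ephx1, Gstm2, Gstm5, Gsta3 and Sult1c2 each lost theirs for some removals. The replicate block gave 16 genes, 13 higher and 3 lower, against 33.0% of all genes, and 12 of the 27.

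**Figure D3:**
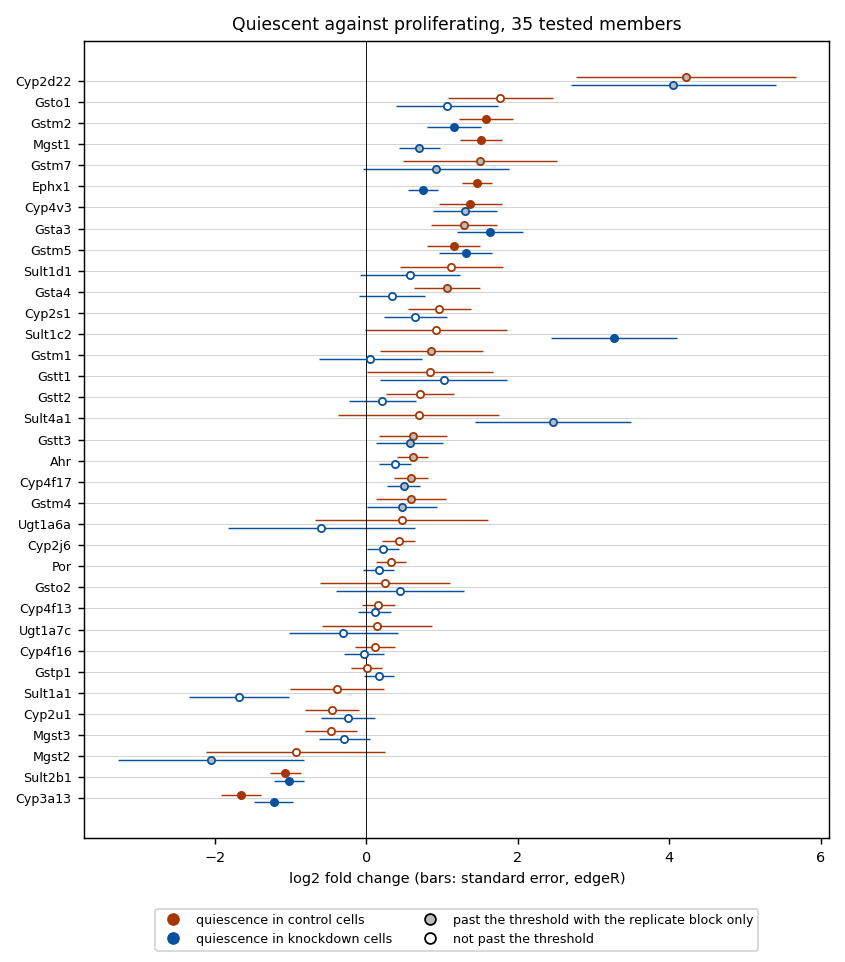
Log2 fold change of quiescent against proliferating cells for the 35 tested genes, in control and in Stag2 knockdown cells, with edgeR standard errors as bars and symbol fill for the test result. Cyp3a13 and Sult2b1 lie left of 0 and Ephx1, Gstm2 and Gstm5 right of 0 in both backgrounds.

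The knockdown of Stag2 changed none of these genes past the threshold in proliferating cells, where edgeR called 0.0242% of all genes, and none in quiescent cells, where it called 0.435%. DESeq2 likewise called 0 in both, against 0.0967% of all genes in proliferating and 3.14% in quiescent cells. At an unadjusted p under 0.05 in edgeR there were 0 genes in proliferating and 3 in quiescent cells. The share of all genes at that cut was not taken, so these 2 counts have no background. The replicate block called 0 in proliferating cells (0.0242% of all genes) and 1, Sult1c2, in quiescent cells (3.55% of all genes), but 0 of the 27. The median log2 fold change of the 35 genes in quiescent cells was -0.09 without and 0.02 with the block, against 0.02 over all tested genes without it. In counts simulated for this comparison, the test recovered 48.5% of genes changed by 1 and 77.8% of genes changed by 2 on the log2 scale. The changed genes were drawn from all tested genes and the simulation had no effect of experiment, so recovery for these 35 genes was not measured.

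Sult1c2, a cytosolic sulfotransferase, had the largest value. It measured 0.483, 0.0612 and 0.238 CPM in quiescent controls, from 7, 1 and 4 counts, and 1.99, 1.25 and 2.05 CPM in quiescent knockdown cells, from 44, 21 and 35 counts. All 3 knockdown libraries lay above the controls. The log2 fold change was 2.75 (SE 0.80), with an edgeR adjusted p of 0.184 without the block and 0.0459 with it. In proliferating cells its counts were between 0 and 6. Because the quiescent knockdown libraries alone brought Sult1c2 into the test, these p-values are not independent of the filter. The same holds for its log2 fold change of 3.28 between quiescent and proliferating knockdown cells (standard error 0.83, adjusted p 0.0199 by edgeR), which shares those libraries.

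Ephx1 rose less with quiescence in knockdown cells than in controls, without passing the test of that difference. It measured 176, 119 and 107 CPM in proliferating and 236, 252 and 187 CPM in quiescent knockdown cells. Its rise there was 0.75 on the log2 scale (standard error 0.19, adjusted p 0.0222 by edgeR), a call that was lost in 5 of 13 alternatives, among them the removal of the experiment 7 or 9 proliferating or the experiment 5 or 7 quiescent library. Each quiescent knockdown library lay below every quiescent control, with a log2 fold change of -0.48 (SE 0.19) and an edgeR adjusted p of 0.354 without and 0.110 with the block. The difference between the responses was -0.72 (SE 0.27), and -0.76, -0.66 and -0.69 in experiments 5, 7 and 9. Adjusted over all genes, its p by edgeR was 0.810 in the fit with the block. For Mgst1 the difference between the responses was -0.81 (SE 0.39), with -0.32, -0.82 and -1.18 in the 3 experiments and a p of 0.808, adjusted over all genes by edgeR, in the fit with the block.

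Ahr was also lower in all 3 quiescent knockdown libraries, at 30.5, 36.1 and 31.0 CPM, than in the quiescent controls given above. Its log2 fold change of -0.42 (SE 0.21) did not pass (edgeR adjusted p 0.467 without and 0.178 with the block). No gene of the 35 was called for the difference between the responses by edgeR, with or without the block, or by DESeq2. Over all tested genes edgeR called 0% for it in both fits.

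**Figure D4:**
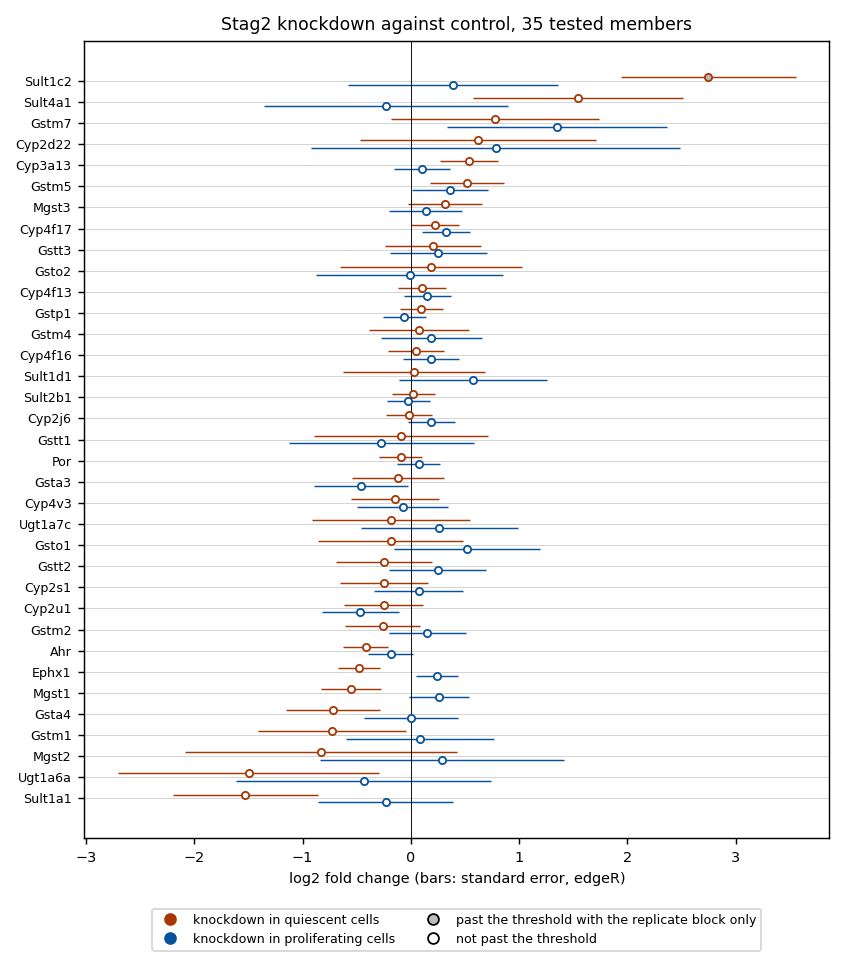
Log2 fold change of Stag2 knockdown against control for the 35 tested genes in quiescent and in proliferating cells, with edgeR standard errors as bars. Sult1c2, at 2.75 in quiescent cells, is the 1 gene marked as past the threshold with the replicate block, and no gene is past it without.

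Levels of many of these genes also differed between the experiments. An edgeR test of the experiment term, chosen after the data had been seen, called 18 of the 35 genes, against 21.1% of all tested genes. Of those 18, 12 were highest in experiment 9, 6 in experiment 5 and 0 in experiment 7, whereas among all 2617 genes called for it 40.2%, 37.0% and 22.8% were highest in experiments 9, 5 and 7. The experiment number coincides with the batch in the labels, so culture, passage and library preparation cannot be told apart.

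Gstm1, a mu-class transferase, had the smallest p for this term (adjusted p 0.00101 by edgeR). In proliferating controls it measured 9.59, 19.6 and 45.0 CPM in experiments 5, 7 and 9, and in proliferating knockdown cells 9.09, 19.8 and 49.7 CPM. Its quiescent controls measured 23.0, 31.5 and 79.8 CPM, so the order of the experiments was the same in these 3 groups. The quiescent knockdown cells measured 20.8, 20.5 and 39.9 CPM, with experiments 5 and 7 nearly equal. Of its 50-base sequences, 18.9% also occur in other genes, most of all in Gstm2-ps1.

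Gsto1, the highest of these genes per length, was uneven between experiments. In proliferating controls it measured 469.7, 369.6 and 439.8 CPM and in quiescent controls 688, 384 and 3281 CPM. Its log2 differences within experiments were 0.55, 0.06 and 2.90, and the overall value of 1.77 (SE 0.69) had an edgeR adjusted p of 0.0937. In knockdown cells it measured 482, 472 and 881 CPM when proliferating and 1211, 561 and 2061 CPM when quiescent, with log2 differences of 1.33, 0.25 and 1.23. Experiment 9 was highest in both, while the difference there was close to that of experiment 5. The CPM summed over the Gst genes was 3872 CPM in the quiescent control of experiment 9 and 1173 and 828 CPM in those of experiments 5 and 7.

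Cyp1b1, a target of the aryl hydrocarbon receptor, had 7, 1 and 167 counts in quiescent controls and 4, 2 and 123 in quiescent knockdown cells of experiments 5, 7 and 9. Proliferating libraries held between 0 and 5 counts. In CPM the quiescent libraries of experiment 9 stood at 9.95 and 7.20, and no other library exceeded 0.483. The receptor target Tiparp did not follow this order, at 43.7, 48.8 and 45.4 CPM in quiescent controls. In quiescent knockdown cells Tiparp measured 43.2, 31.5 and 36.9 CPM. Cyp1a1 had 1, 1 and 1 counts in quiescent controls and 1, 0 and 9 in quiescent knockdown cells. Ugt1a6a, of the receptor list used below, had 5, 3 and 42 counts in quiescent controls. It had 8, 0 and 12 counts in quiescent knockdown cells. The part of the receptor in these levels was not tested. Cyp2d22 was also highest in experiment 9, with 3, 6 and 67 counts in quiescent controls and 14, 25 and 85 in quiescent knockdown cells, against 0 to 6 in the proliferating libraries. Its log2 fold change for quiescence in controls was 4.22 (SE 1.45), with an edgeR adjusted p of 0.0619 without and 0.00424 with the block, in a gene that passed the filter through quiescent libraries alone.

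The 2 tested glucuronosyltransferases, Ugt1a7c and Ugt1a6a, were also called for the experiment term. Ugt1a7c measured 13.7, 6.69 and 13.6 CPM in proliferating controls and 7.38, 2.14 and 28.0 CPM in quiescent controls. It was thus lower in the quiescent controls of experiments 5 and 7 and higher in that of experiment 9. Its log2 fold change in controls was 0.14 (standard error 0.73, adjusted p 0.912 by edgeR). In knockdown cells Ugt1a7c measured 15.8, 6.49 and 18.5 CPM when proliferating and 9.70, 6.62 and 16.8 CPM when quiescent. The rise in experiment 9 was thus seen in controls alone. The genes of this locus share their last exons, and 53.7% of the 50-base sequences of Ugt1a7c also occur in another gene, so counts of single Ugt1a genes are uncertain. Gstt3, a theta-class transferase, was highest in experiment 5 in every group and was higher in the quiescent control of each experiment, by 0.32, 0.73 and 1.00 on the log2 scale. It passed with the block (edgeR adjusted p 0.00882) and not without it (0.359).

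Without the 4 libraries of experiment 9, an alternative chosen after the data had been seen, quiescence in control cells called 4 genes (Ephx1, Mgst1, Cyp3a13 and Sult2b1) and quiescence in knockdown cells 1 (Gstm5). Of all genes then tested 7.25% and 5.99% were called, and the fit had fewer libraries.

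**Figure D5:**
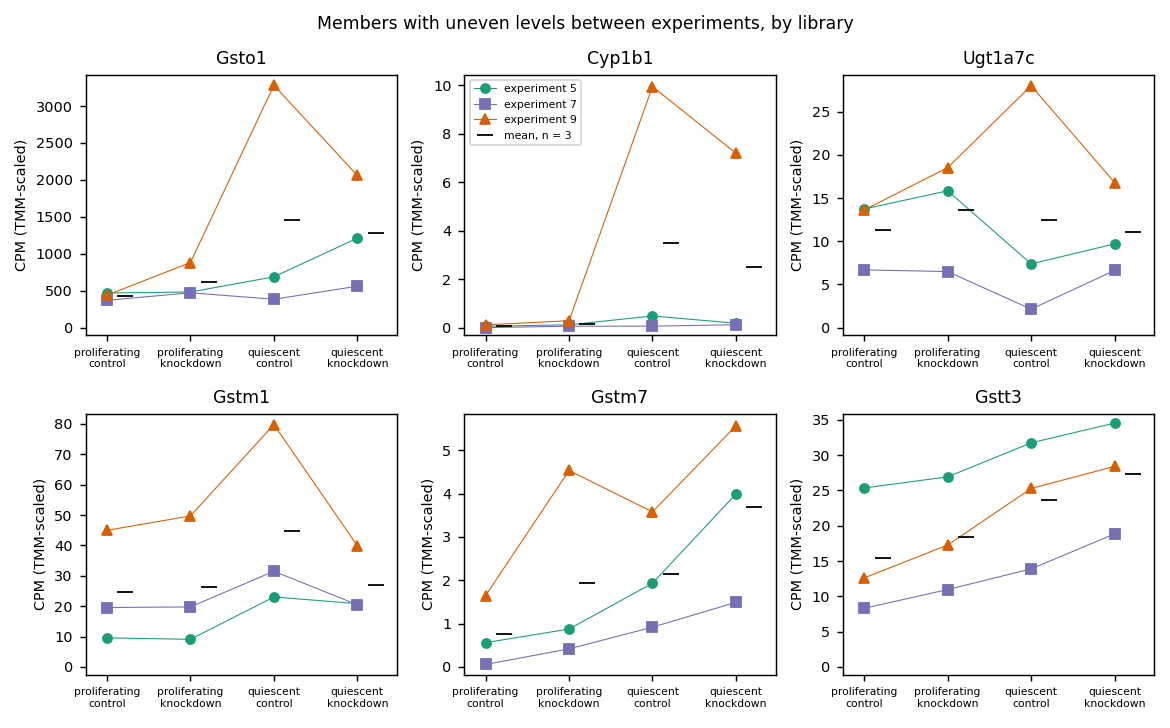
CPM of Gsto1, Cyp1b1, Ugt1a7c, Gstm1, Gstm7 and Gstt3 by group, with 1 coloured line per experiment and a black mark for the mean of 3 libraries. Experiment 9 is highest for Gsto1 and Cyp1b1 in both quiescent groups (3281 and 2061 CPM for Gsto1), and experiment 5 is highest for Gstt3 in every group.

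Promoters were searched for the core motifs of both sensor pathways, because both can drive this set of enzymes. RefSeq promoters were found for 119 of the 147 genes (136 promoters) and for 28 of the 35 tested genes (35 promoters, since some genes have several). The windows were RefSeq promoters of GRCm38.p6, from 250 bases before to 50 after the start, read on both strands. The core bound by the aryl hydrocarbon receptor, GCGTG, was in 11 of the 35 promoters of tested genes, in 29 of all 136 and in 32.4% of the 32851 promoters of the genome. The antioxidant response core bound by Nrf2, TGACNNNGC, was in 5 of those 35, in 10 of the 136 and in 12.4% of the genome's promoters. The half-site AGGTCA of nuclear receptors was in 2 of those 35, in 30 of the 136 and in 16.3% of the genome's promoters. Its direct repeat with 1 base between, the form bound by PPAR gamma, was in 0 of the 136 and in 0.0396% of the genome's promoters. Neither core occurred in the windows of Ephx1, Gstm2 or Cyp3a13. A match is only a match of letters.

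Shown first is the upstream sequence of Gstm5 (chr3:107895604-107895820, plus strand), which rose with quiescence and holds both motifs. Gsta3 (chr1:21240335-21240584, plus strand) and a stretch of Mgst1 (chr6:138140461-138140489, plus strand) have 1 antioxidant core each. Cyp1b1 (chr17:79715062-79715311, minus strand), the gene that was high in the quiescent libraries of experiment 9, has 1 receptor core. Capitals mark the cores, which appear as their reverse complement where they lie on the other strand. In Gstm5 the last run of capitals is an antioxidant core whose final 5 bases are also a receptor core on the other strand.
Gstm5: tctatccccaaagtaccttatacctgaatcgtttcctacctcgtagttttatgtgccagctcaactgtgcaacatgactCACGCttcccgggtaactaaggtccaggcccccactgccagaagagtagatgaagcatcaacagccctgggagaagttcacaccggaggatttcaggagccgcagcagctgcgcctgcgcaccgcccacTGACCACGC
Gsta3: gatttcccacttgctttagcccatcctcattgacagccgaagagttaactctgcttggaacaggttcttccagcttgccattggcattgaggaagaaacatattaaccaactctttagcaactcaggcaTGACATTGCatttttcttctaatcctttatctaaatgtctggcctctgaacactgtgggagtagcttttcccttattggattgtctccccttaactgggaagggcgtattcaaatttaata
Mgst1: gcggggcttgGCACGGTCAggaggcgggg
Cyp1b1: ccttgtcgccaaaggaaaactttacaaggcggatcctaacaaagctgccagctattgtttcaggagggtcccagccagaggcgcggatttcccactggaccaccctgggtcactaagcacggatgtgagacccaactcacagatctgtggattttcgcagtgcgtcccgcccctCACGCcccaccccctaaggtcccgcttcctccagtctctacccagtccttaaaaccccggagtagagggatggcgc

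The cores lie 171 to 167 and 42 to 34 bases before the RefSeq start in Gstm5 and 121 to 113 in Gsta3. The core of Mgst1 lies 56 to 48, and that of Cyp1b1 76 to 72, bases before that start. The GENCODE annotation starts Gstm5 further upstream, at chr3:107895821, and the printed sequence stops just before that base. It starts Mgst1 at chr6:138140316, so the printed stretch lies inside that annotated gene. In quiescent controls against proliferating controls the log2 fold changes of the first 3 genes were 1.15, 1.29 and 1.51, of which that of Gsta3 did not pass without the block. Cyp1b1 was too low to be tested. Other tested genes held a core as well. The antioxidant core was also in the windows of Cyp2j6, which did not pass, and Gstm7, which passed with the block alone. The receptor core was also in those of Cyp4v3, which rose, Sult2b1, which fell, and Gstm1, which passed with the block alone. It was in those of Cyp4f16, Gstp1, Mgst3, Por and Sult1d1 too, which passed neither without nor with the block.

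The rest of the pathway is given by lists of genes. The background for quiescence in controls is 20.0% of all genes called without the block and 35.3% with it. Of 28 tested genes of the Nrf2 pathway, 4 rose, Ephx1 among them, and 1 fell, and the block gave 8 and 1. Hmox1, which breaks down heme, rose from 42.4 to 71.3 CPM (log2 fold change 0.75, edgeR adjusted p 0.0175), and Me1, a source of NADPH, rose from 30.2 to 61.5 CPM (1.02, edgeR adjusted p 0.0494). Osgin1 fell from 144 to 56.8 CPM (-1.34, edgeR adjusted p 0.0198). Each of these 3 calls was lost for some removals of 1 library. Over all alternatives the adjusted p by edgeR reached 0.163 for Me1, 0.221 for Osgin1 and 0.0712 for Hmox1. Members of the same list thus moved in both directions, and Nfe2l2 itself was at 342.5 and 317 CPM (edgeR adjusted p 0.619). In the aryl hydrocarbon receptor list 0 of 5 tested genes passed, and Ahr did so with the block. At an unadjusted p under 0.05 in edgeR there were 2. The share of all genes at that cut was not taken, so this count has no background. Of 14 tested genes of glutathione synthesis and redox, 0 rose and 1 fell (Gstcd, log2 fold change -1.18, edgeR adjusted p 0.00108). Gclc, the rate-limiting enzyme of glutathione synthesis, passed with the block alone, which gave 1 gene higher and 2 lower, or 3 in all, in this list.

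Neighbouring enzyme classes changed as well. Among 24 tested genes of other oxidation, reduction and hydrolysis enzymes, 3 rose and 0 fell, and the block gave 7 and 1. Aldh1a1, which oxidises retinaldehyde and other aldehydes, measured 5.33, 7.39 and 3.64 CPM in proliferating and 60.7, 65.1 and 85.5 CPM in quiescent controls. The groups were far apart, with a log2 fold change of 3.69 (standard error 0.31, adjusted p 4.97e-05 by edgeR). In quiescent knockdown cells Aldh1a1 measured 26.6, 15.0 and 24.1 CPM, below every quiescent control. It was the 1 gene of the pathway lists that the knockdown moved past the threshold in quiescent cells without the block (log2 fold change -1.68, standard error 0.28, adjusted p 0.0349 by edgeR). Leaving out any 1 of the 6 quiescent libraries ended that call, and the adjusted p over its alternatives ran from 4.84e-06 by DESeq2 to 0.301 by edgeR without experiment 9. Aldh1a7 and Aldh3a2 also rose with quiescence, by 2.60 and 0.62 on the log2 scale (edgeR adjusted p 0.00391 and 0.0205), the latter without passing for 4 of the 6 removals of 1 control library.

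Transporters went both ways, with 3 of 13 tested genes higher and 1 lower in quiescent controls, and 5 and 2 with the block. Abcb1b, a drug efflux pump, fell from 41.4, 50.5 and 56.8 CPM to 6.83, 9.66 and 20.3 CPM (log2 fold change -2.01, standard error 0.41, adjusted p 0.00586 by edgeR). In quiescent knockdown cells it was at 1.99, 4.71 and 5.68 CPM, lower than every quiescent control, with an edgeR adjusted p of 0.145 without and 0.0238 with the block. Slco4a1 and Slc22a5, both uptake carriers, rose by 1.02 and 0.88 on the log2 scale (edgeR adjusted p 0.0114 and 0.0125), as did Abcc5, an exporter (0.84, edgeR adjusted p 0.00368).

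Of 9 tested nuclear receptors and partners, Nr1h2 rose (a call lost in 8 of 13 alternatives) and Ppard fell, the latter from 166 to 66.6 CPM (log2 fold change -1.32, edgeR adjusted p 0.00718). Pparg, the gene of the receptor that rosiglitazone binds, was low, with group means of 4.73 CPM in proliferating and 6.12 CPM in quiescent controls. In quiescent knockdown cells the fit with the block called 6 more genes of these lists lower than in quiescent controls: Nfe2l2, Pparg, Nr3c1, Abcb1b, Abcc5 and Maoa. Their log2 fold changes in that fit were -0.58, -1.45, -0.65, -1.55, -0.74 and -0.93. By list the block called 1 of 28 tested genes for Nrf2, 2 of 9 nuclear receptors and partners and 2 of 13 transporters. Among other oxidation, reduction and hydrolysis enzymes it called 2 of 24, Aldh1a1 included. In the aryl hydrocarbon receptor and glutathione lists it called 0 of 5 and 0 of 14, against 3.55% of all genes. Between proliferating and quiescent controls, Tpst1, a sulfotransferase that acts on protein tyrosines, fell by 1.32 on the log2 scale (edgeR adjusted p 0.00433).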

How the data were processed

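The authors deposited raw counts, 1 whole number per gene symbol and library, without normalization. Per the submitters' processing notes, the genome build was mm10 and the tools named were Bowtie, TopHat, HTSeq and DESeq2, with no roles. The annotation and the strand setting of the counting are not given in the sources used here, so near copies and genes that overlap on opposite strands are uncertain. Per the labels' protocols, libraries came from polyadenylated RNA with a stranded kit.

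Counts were fitted in edgeR 4.0.16 (R 4.3.3; TMM; filterByExpr, minimum count 10; glmQLFit and glmQLFTest on 4 group means over all 12 libraries), with Benjamini-Hochberg adjustment over 12406 genes and a threshold of 0.05. The standard error is the log2 fold change over the root of the F statistic. Log2 CPM used a prior count of 2. Exon lengths came from GENCODE M21 on GRCm38, where 146 of the 147 symbols matched. The script was tested on simulated data.

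The labels give each experiment number (5, 7, 9) to 1 library of every group, together with a batch, so the numbers pair the samples. Deviations from group means correlated across genes with a mean r of 0.526 (0.225 to 0.789, 18 pairs) within experiments. Between experiments the mean was -0.259 (36 pairs), which follows largely from the first value because deviations of a group cancel out over its experiments. The fit with this replicate block is given beside most counts and for some genes, mainly those short of the threshold without it. For the other genes the values are those of the fit without the block. The 7 members called in quiescent controls without the block were also called with it. The lowest chi-square per degree of freedom between replicates was 38.3, so none was a repeat deposit. Nothing says whether replicates were separate cultures beyond their experiment, and p-values measure the spread between them.

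Alternatives were the block, DESeq2 1.42.0 and its size factors, no filter, a mean count of at least 50, only the libraries of a contrast, and leaving out each library. The genes and lists were chosen with earlier results of these data known. The genes named are those past the threshold in any contrast with or without the block, the 7 fixed members Ahr, Ahrr, Nqo1, Por, Ephx1, Cyp1a1 and Cyp1b1, the highest per length in each family, and up to 3 of each pathway list per contrast. Cyp1a2, Mgst3, Gstp1, Gclc, Tiparp, Abcc5, Nfe2l2, Pparg, Nr3c1, Maoa and the genes named for the filter were added after their values were seen. A few genes that this rule or the pathway lists hold are not reported here.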

Additional observations from a re-analysis of the deposited data

How the results depend on the processing

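For quiescence in control cells, 7 genes were called, 16 with the replicate block (the experiment number as pairing), 12 by DESeq2, 4 without the 4 libraries of experiment 9 and 6 to 11 when 1 library was left out, the most without the proliferating control of experiment 5. For quiescence in knockdown cells the 7 became 16 with the block, 1 without experiment 9 and 2 to 5 without 1 library. For knockdown in quiescent cells the block gave 1 in place of 0. Knockdown in proliferating cells and the interaction gave 0 in every alternative that was run. No gene's called value reversed. In quiescent controls Ephx1, Cyp3a13, Mgst1 and Sult2b1 stayed past the threshold in all 13 alternatives, and Gstm2 in all but the one without experiment 9. Stag2 fell past the threshold in proliferating cells except without experiment 9 (adjusted p 0.27 in edgeR). Over all 12406 genes, the calls for quiescence in controls rose from 2481 to 4374 with the block, and those for knockdown in quiescent cells from 54 to 440. Sult1c2, Cyp2d22, Cyp1b1 and Nqo1 had few counts in most libraries, and a change in them may not have been detectable at this depth.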
